A study of Mus musculus with 2 samples.

Results

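Small nucleolar RNAs (snoRNAs) of the C/D and H/ACA classes were examined in total RNA from the gastrocnemius, the large superficial calf muscle, of newborn mice. The genes were those that the annotation in the deposited tables types as snoRNA and names Snord or Snora with a number. There were 140 such genes, 98 C/D (Snord) and 42 H/ACA (Snora), of 1507 annotated snoRNA genes and 55536 annotated genes in all. They carried 137 symbols, since Snord80, Snora43 and Snora16a each had a pair of gene identifiers. The study had 1 group of 2 libraries, from male B6CASTF1/J mice, a first-generation hybrid of the C57BL/6J and CAST strains, at 4 days of age. The animals were untreated as far as the labels say and are numbered separately there, although the same donor entry is given for both. Each library was made from 300 ng of whole-tissue RNA with ERCC spike-in controls, so it mixes muscle fibres with the other cells of the dissected tissue, and fewer cells of a type cannot be told apart from less RNA per cell. With 1 group no test between conditions was possible, and the 2 libraries give the spread between samples, which may be partly technical.

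Most snoRNAs guide chemical marks onto other RNAs in the nucleolus. C/D snoRNAs carry a C box near the start and a D box near the end, bind fibrillarin, and guide the methylation of ribose in ribosomal and spliceosomal RNA. H/ACA snoRNAs fold into a pair of hairpins, end in an ACA box, bind dyskerin, and guide the conversion of uridine to pseudouridine. A few members of both classes act in cutting the ribosomal precursor RNA instead. In mammals most snoRNAs are trimmed out of introns of host genes, many of which make ribosomal proteins or long noncoding RNAs.

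Expected counts over all annotated genes summed to 35281187 for replicate 1 and 32301531 for replicate 2. ERCC controls took 0.65% and 0.635% of all counts. The skeletal muscle markers Acta1, Ckm, Mylpf, Myh8 and Tnnt3 stood between 3727 and 13742 TPM, the length-scaled transcript abundance, over both libraries. Epidermis markers differed between the libraries: Krt1, Krt5, Krt10 and Krtdap summed to 9.5 TPM for replicate 1 against 678 TPM for replicate 2, and their part in the snoRNA values was not tested. The red cell markers Hba-a1 and Hbb-bs summed to 467 and 539 TPM.

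The sequences of the snoRNA genes with the highest counts or with a role in ribosome processing follow, from the GENCODE M21 transcripts with mm10 coordinates, written 5′ to 3′ as DNA letters. The first set are the C/D snoRNAs with 10 or more counts in both libraries. Capitals mark the C box core TGATGA where it lies in the first 20 nt and the D box CTGA where it lies in the last 12 nt, read on the RNA strand only.
Snord17 (chr2:144265979-144266216, minus strand): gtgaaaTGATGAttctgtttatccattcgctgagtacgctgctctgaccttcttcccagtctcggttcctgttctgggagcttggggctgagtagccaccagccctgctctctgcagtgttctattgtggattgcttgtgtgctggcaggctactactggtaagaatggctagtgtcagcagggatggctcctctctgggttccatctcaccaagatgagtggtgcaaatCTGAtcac
Snord15a (chr7:99482785-99482932, minus strand): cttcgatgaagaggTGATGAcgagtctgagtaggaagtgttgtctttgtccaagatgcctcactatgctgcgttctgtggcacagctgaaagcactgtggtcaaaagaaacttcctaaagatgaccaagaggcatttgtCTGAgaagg
Snord15b (chr7:99479563-99479707, minus strand): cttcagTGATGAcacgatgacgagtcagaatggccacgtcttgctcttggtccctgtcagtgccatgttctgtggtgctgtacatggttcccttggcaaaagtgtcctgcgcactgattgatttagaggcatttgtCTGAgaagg
Snord22 (chr19:8725866-8725991, plus strand): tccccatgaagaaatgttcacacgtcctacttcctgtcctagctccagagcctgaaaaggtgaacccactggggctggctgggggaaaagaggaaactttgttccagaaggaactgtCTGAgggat
Snord118 (chr11:69073427-69073561, plus strand): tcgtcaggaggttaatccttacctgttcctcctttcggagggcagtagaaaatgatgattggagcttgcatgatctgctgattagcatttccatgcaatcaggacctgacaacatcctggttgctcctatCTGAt

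The second set are shorter C/D snoRNAs at a count of 0, shown because the tables treated them differently. Snord14a is known for ribosome processing, Snord47 lies in the host gene Gas5, and Snord116l1 carries the sequence shared by most of the imprinted Snord116 array. The capitals mark the same boxes.
Snord14a (chr7:116333171-116333257, minus strand): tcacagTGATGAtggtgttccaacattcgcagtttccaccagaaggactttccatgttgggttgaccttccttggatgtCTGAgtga
Snord47 (chr1:161038082-161038158, plus strand): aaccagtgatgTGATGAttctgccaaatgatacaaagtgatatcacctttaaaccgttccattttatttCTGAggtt
Snord116l1 (chr7:59894620-59894713, minus strand): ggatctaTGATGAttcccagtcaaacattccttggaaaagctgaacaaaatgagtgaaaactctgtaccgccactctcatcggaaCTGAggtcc

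The last set are H/ACA snoRNAs with 10 or more counts in both libraries: the near-identical pair Snora73a and Snora73b, which held the most counts of the 140 genes, Snora23, and Snora57, which lies in no host gene. Capitals mark ACA where it lies in the last 8 nt.
Snora73a (chr4:132352775-132352979, minus strand): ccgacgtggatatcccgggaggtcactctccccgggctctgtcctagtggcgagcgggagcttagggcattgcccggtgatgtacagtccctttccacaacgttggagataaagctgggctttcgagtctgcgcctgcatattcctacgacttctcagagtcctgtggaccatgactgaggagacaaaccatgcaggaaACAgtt
Snora73b (chr4:132352322-132352526, minus strand): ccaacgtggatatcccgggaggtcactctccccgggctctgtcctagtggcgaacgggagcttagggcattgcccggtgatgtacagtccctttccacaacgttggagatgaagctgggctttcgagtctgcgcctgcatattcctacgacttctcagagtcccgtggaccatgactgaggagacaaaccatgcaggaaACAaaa
Snora23 (chr7:110046364-110046547, plus strand): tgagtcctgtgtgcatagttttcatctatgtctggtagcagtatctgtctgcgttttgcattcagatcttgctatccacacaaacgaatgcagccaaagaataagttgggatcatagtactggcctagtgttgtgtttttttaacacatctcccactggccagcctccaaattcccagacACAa
Snora57 (chr19:8888538-8888685, minus strand): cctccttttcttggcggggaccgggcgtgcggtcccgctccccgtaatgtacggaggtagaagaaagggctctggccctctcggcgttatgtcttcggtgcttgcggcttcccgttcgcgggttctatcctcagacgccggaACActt

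These boxes ran through the classes. TGATGA lay in the first 20 nt of 70 of 98 C/D genes (71.4%) and CTGA in the last 12 nt of 86 (87.8%), with both in 65 (66.3%). ACA lay in the last 8 nt of 40 of 42 H/ACA genes (95.2%). Among 140209 transcripts of other types, 0.471% held TGATGA in the same window, 5.5% CTGA, 0.0271% both and 11.1% ACA. No H/ACA gene held TGATGA in that window, while 3 of 42 (7.14%) held CTGA, and 7 of 98 C/D genes (7.14%) held ACA in the last 8 nt. Among the 5 C/D genes with 10 or more counts, Snord22 and Snord118 had the D box and no TGATGA in these windows. A match is only a match of letters in that window.

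The classes differed in length, and the length set the effective length by which the alignment-based table turned counts into TPM. C/D genes were 64 to 238 nt long with a median of 84 nt, and H/ACA genes were 121 to 205 nt with a median of 132.5 nt. In that table the effective length of every C/D or H/ACA gene of 100 nt or more was its length minus 99 nt. That of every shorter gene was 0. All 2398 annotated genes under 100 nt had an effective length of 0 and a count of 0 in both libraries. Of the C/D genes 87 of 98 were in that range, and none of the H/ACA genes. A count of 0 of those 87 C/D genes therefore carries no limit on their level. Only 11 C/D genes and all 42 H/ACA genes were long enough to hold a count.

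**Figure D1:**
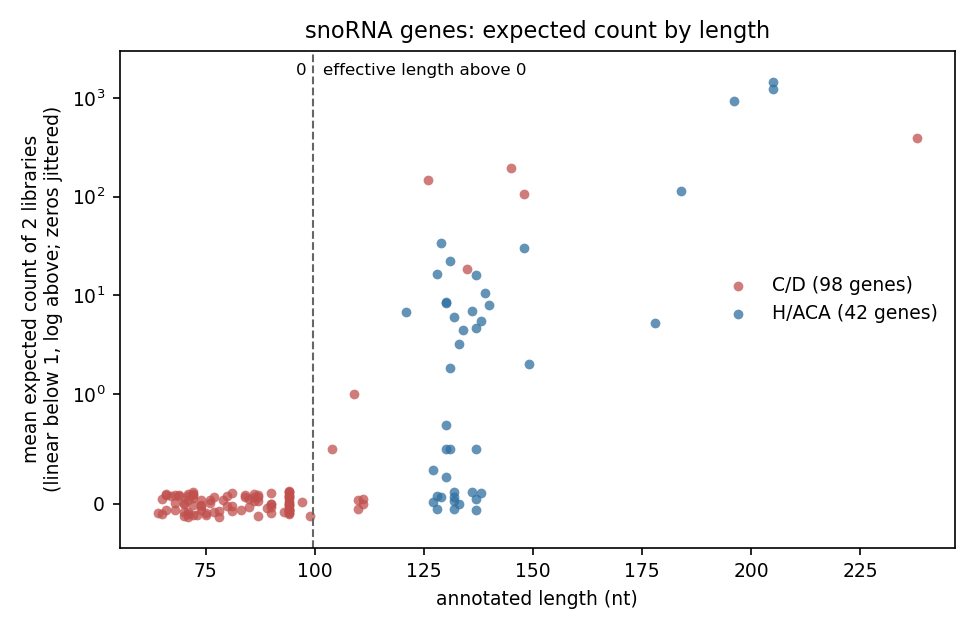
Mean expected count over the 2 libraries (vertical axis, linear below 1 and logarithmic above, zeros jittered) against annotated length in nt for 98 C/D and 42 H/ACA snoRNA genes, each point being 1 gene. The 87 C/D genes left of the dashed line at 100 nt are all at 0, and the highest counts, near 1446 and 1226, are the H/ACA genes of 205 nt.

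Counted genes, those with 10 or more expected counts in both libraries, numbered 15 of the 140, 5 C/D (5.1% of the class) and 10 H/ACA (23.8%). The same held for 30.7% of all annotated genes, for 32.1% of genes of 100 nt or more, and for 37 of the other 1367 annotated snoRNA genes (2.71%). Among C/D genes of 100 nt or more, 5 of 11 (45.5%) were counted. These shares describe the tables, and no share was tested.

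Snord17, the longest C/D gene at 238 nt, had the most counts of its class. It held 388 expected counts in replicate 1 and 405 in replicate 2, which was 44.0% and 47.7% of all C/D counts. With an effective length of 139 nt this came to 95.4 and 106.9 TPM (101.2 ± 8.12, SD, n = 2).

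Snord15a and Snord15b, the U15 RNAs that guide methylation of the large ribosomal subunit RNA, lie in the same host gene, Rps3. Snord15b held 213 and 179.8 counts (158 and 143 TPM) and Snord15a 117 and 97 counts (81.6 and 72.6 TPM). Snord15b was the higher copy in both libraries on either scale. Their aligned sequences share 101 of 154 positions (65.6%). The posterior standard deviation of the count was 0 for Snord15a in both libraries, which shows no spread in a split of reads between the pair. That of Snord15b was 1.02 and 1.12 counts. Snord15b also lies wholly in an exon of an Rps3 transcript, which held 83.9 and 104.8 counts.

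Snord22 and Snord118, the U22 and U8 RNAs, act in processing of the ribosomal precursor. Snord22 held 145 and 148 counts, and its effective length of only 27 nt placed it first of its class by TPM, at 183 and 201. Snord118, the RNA whose human counterpart is mutated in a leukoencephalopathy with calcifications and cysts, held 19 and 18 counts, or 18.04 and 18.34 TPM. By TPM the order Snord22, Snord15b, Snord17, Snord15a, Snord118 was the same in both libraries, and no neighbours in it overlapped. By counts the order was Snord17, Snord15b, Snord22, Snord15a, Snord118, also in both.

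The effective length weighs each read of these genes very unequally. In replicate 1 a single count was worth 0.246 TPM for Snord17, 1.27 TPM for Snord22 and 6.84 TPM for Snord13. The 6 remaining C/D genes of 100 nt or more were 104 to 111 nt long, with effective lengths of 5 to 12 nt. Snord13, the U13 RNA that pairs with the small-subunit ribosomal RNA, held 1 count in replicate 1 and 0 in replicate 2. Snord23 held 0 and 2. Snord8, Snord67, Snord89 and Snord90, singled out with Snord23 after their values were seen, were at 0 in both libraries, which allows up to 8.55 to 9.32 TPM in replicate 1 and 9.17 to 10.01 TPM in replicate 2, counting error only.

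Snora73a and Snora73b, the U17 RNAs needed for cutting out the small-subunit ribosomal RNA, held more counts than any other of the 140 genes. Snora73b held 1477 and 1414 counts, and Snora73a held 1280 and 1171. In TPM this was 476 and 489.5 for Snora73b (483 ± 9.45, SD, n = 2) and 413 and 405 for Snora73a (409 ± 5.19). Together they took 56.5% and 55.3% of the counts of all 140 genes. The pair differ at few positions, with 198 of 205 identical (96.6%), but the posterior standard deviations of their counts were 9 to 9.98, far below the counts themselves. Snora73b was the higher of them in both libraries.

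Snora74a, the U19 RNA, came next, with 901 and 941 counts and 318 and 356 TPM. Snora73a, Snora73b and Snora74a together took 91.6% and 92.2% of H/ACA counts. Below them the levels fell steeply. Snora23 held 116 and 111 counts (46.7 and 47.9 TPM), Snora44 held 40.9 and 26.4 counts (46.5 and 32.2 TPM), and Snora57 held 33 and 28 counts (23.02 and 20.97 TPM). Snora68 held 27.9 and 16.4 counts (29.8 and 18.8 TPM), Snora21 20 and 12 (17.99 and 11.59 TPM), and Snora78 19 and 14 (22.4 and 17.7 TPM). Snora43 closed the list with 10 and 11.4 counts for its longer identifier, or 8.55 and 10.4 TPM, and the shorter, overlapping identifier of Snora43 held 0 and 0.61. Snora73b, Snora73a and Snora74a kept their places by TPM in both libraries without overlap. Snora23 came next in both, but in replicate 1 at 46.65 TPM against 46.55 TPM for Snora44, so the order of Snora23 and Snora44 is not resolved. The values of Snora68, Snora57, Snora78 and Snora21 overlapped between libraries, so their order is not resolved either.

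**Figure D2:**
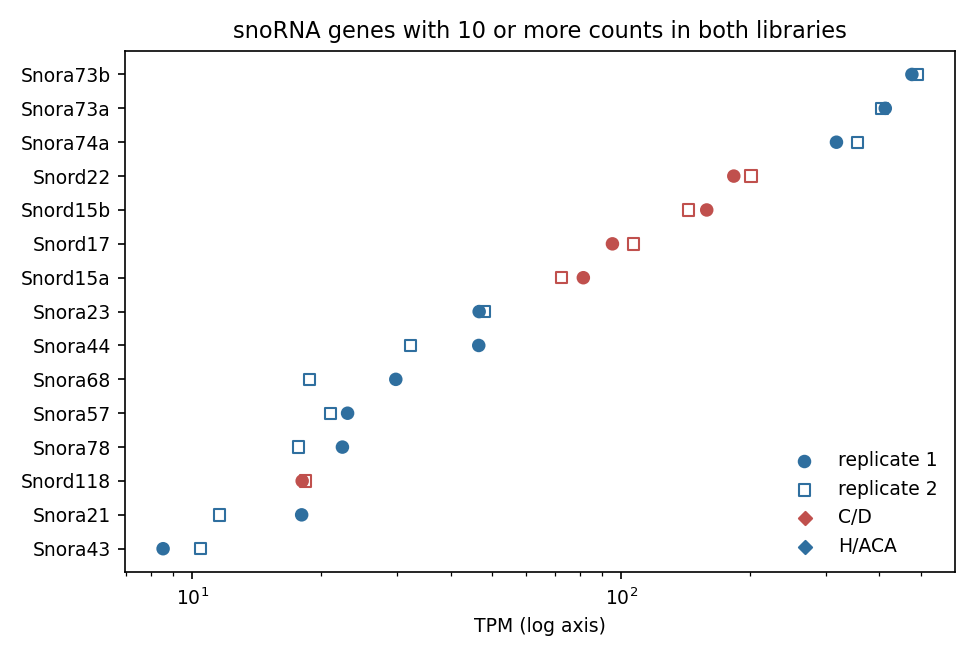
TPM (logarithmic axis) of the 15 snoRNA genes with 10 or more counts in both libraries, with filled circles for replicate 1, open squares for replicate 2, and colour for the class. Snora73b, Snora73a and Snora74a lie at 318 TPM and above in both libraries, and the 5 C/D genes lie between 18.04 and 201 TPM.

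Of the other 32 H/ACA genes, 20 had some count in at least 1 library, with a highest value of 11, and 12 were at 0 in both. A count of 0 in them allows up to 2.63 to 3.66 TPM in replicate 1 and 2.82 to 3.93 TPM in replicate 2, counting error only. Some of them lie wholly in an exon of a host transcript, which for Snora52 held 388 and 224 counts. Whether their reads were assigned to the host was not tested, and the limits do not cover it. Their lengths, 121 to 178 nt with a median of 132 nt, overlapped those of the counted H/ACA genes, 128 to 205 nt with a median of 143.5 nt. The H/ACA genes of highest count were also the longest, Snora73a and Snora73b at 205 nt, Snora74a at 196 nt and Snora23 at 184 nt. Among C/D genes the lengths did not overlap. All 5 counted C/D genes were 126 nt or longer, and all 6 uncounted ones able to hold a count were 111 nt or shorter. A link of count to length was not tested.

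Summed over the class, H/ACA genes held 3995 and 3825 expected counts, 0.0113% and 0.0118% of gene counts. C/D genes held 883 and 849.6, or 0.0025% and 0.00263%. H/ACA exceeded C/D 4.53-fold in replicate 1 and 4.50-fold in replicate 2 by summed counts. By summed TPM the excess was 2.71-fold and 2.72-fold, from 1472 and 1493 TPM against 543 and 549 TPM. Without Snora73a and Snora73b, a choice made after their values were seen, the excess by counts was 1.43-fold. The median of the counted genes ran the other way, at 95.4 and 106.9 TPM for 5 C/D genes against 38.2 and 26.6 TPM for 10 H/ACA genes. The median ratio of C/D to H/ACA was 2.50 in replicate 1 and 4.02 in replicate 2, and 5.11 over both when counts were divided by annotated length instead of effective length. These ratios cover only genes that passed the count minimum. Over genes with any count the medians were 77.1 TPM for C/D and 6.68 TPM for H/ACA. Over all genes, the short ones at 0 included, they were 0 and 2.03 TPM. None of these sums includes the 87 short C/D genes, so they do not compare the classes as a whole.

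The libraries agreed closely for the abundant snoRNAs. Ratios of replicate 2 to replicate 1 were taken after TMM scaling of the counts. With mean counts of 100 or more, 0 of 8 genes lay past 2-fold, where 1.68% of 12421 genes of that depth did. Their log2 ratios ran from -0.19 for Snord15a to 0.14 for Snora74a and Snord17, with an SD of 0.13. The remaining values were -0.16 for Snord15b, -0.05 for Snora73a, 0.02 for Snora23 and for Snora73b, and 0.11 for Snord22. The median size of the log2 ratio was 0.13 for these 8 genes and 0.14 for the 8752 genes with mean counts in the same range, 107.0 to 1446. Exact (Clopper-Pearson) 95% intervals for the split of the counts held 0 for 7 of the 8. The exception, Snora74a, had an interval of 0.01 to 0.28. With DESeq2 size factors its interval of -0.01 to 0.25 held 0, and with total gene counts its interval of 0.06 to 0.32 did not. With ERCC spike-in scaling the intervals of Snora74a and Snord17 lay above 0.

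With a mean count of 10 or more, 0 of 15 genes lay past 2-fold, against 6.18% of 17998 genes. The log2 ratios of these 15 spanned -0.67 for Snora68 to 0.26 for Snora43, with an SD of 0.29, and 14 of the 15 intervals held 0. Of the 7 genes with a mean count of 10 to 100, 5 were higher in replicate 1, and their intervals were wide. Snora68 had an interval of -1.71 to 0.21 and Snora21, at -0.63, one of -1.82 to 0.45. At this depth a difference of 2-fold in either gene was not resolved. Over the 27 genes with a count in both libraries, log2 counts had a Pearson r of 0.964 across genes, which is a description, since genes are not independent replicates and the libraries share their construction.

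**Figure D3:**
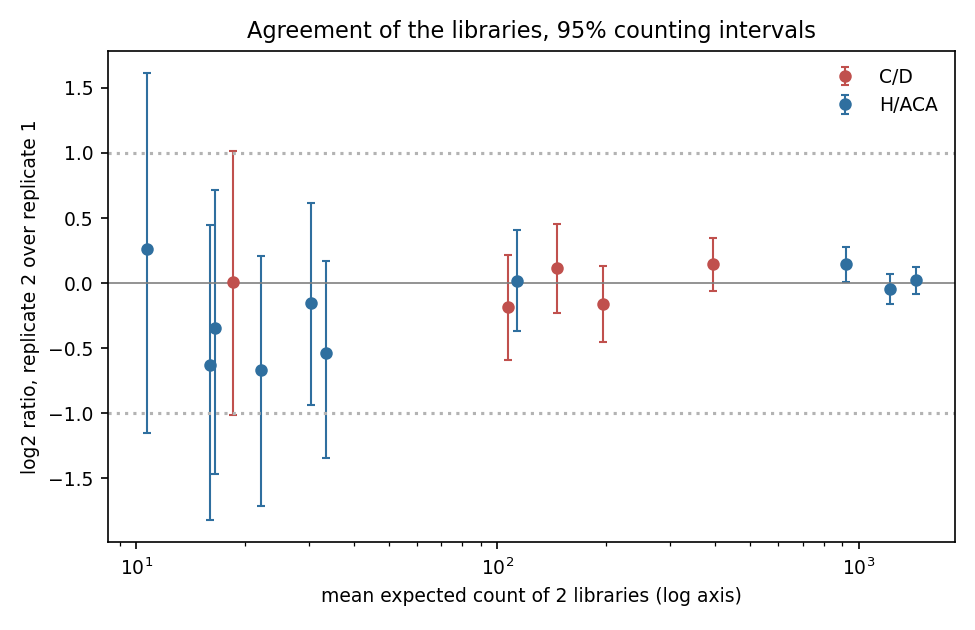
Log2 ratio of replicate 2 to replicate 1 against mean expected count (logarithmic axis) for 15 snoRNA genes, with bars for the 95% counting interval and dotted lines at 2-fold. The 8 genes whose mean count was at least 100 lie between -0.19 and 0.14, and the intervals widen to the left as counts fall.

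In the quantification made directly from reads (the FASTQ-based table), none of these genes was detected. All 140 genes had 0 estimated counts in both libraries, including Snora73b with its 1477 and 1414 expected counts in the alignment-based table. The effective lengths given there for the 140 genes were above 0, from 23.5 to 53.7 nt in replicate 1 and 22.9 to 51.4 nt in replicate 2. All 15 counted genes therefore fell under 1 estimated count, where 313 of 17068 genes (1.83%) with 10 or more counts in both libraries did.

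This loss was shared by other short genes. Every one of the 127 counted genes from 100 to under 250 nt had under 1 estimated count, that is, the 15 snoRNA genes and 112 others. From there to under 300 nt it was 28 of 30 genes, from there to under 400 nt 59 of 99, and at 1000 nt or more 19 of 15695. The other 37 counted snoRNA genes were also all under 1 estimated count. No counted gene in the length range of the snoRNA genes kept an estimated count of 1 or more, and the cause of the loss was not tested.

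**Figure D4:**
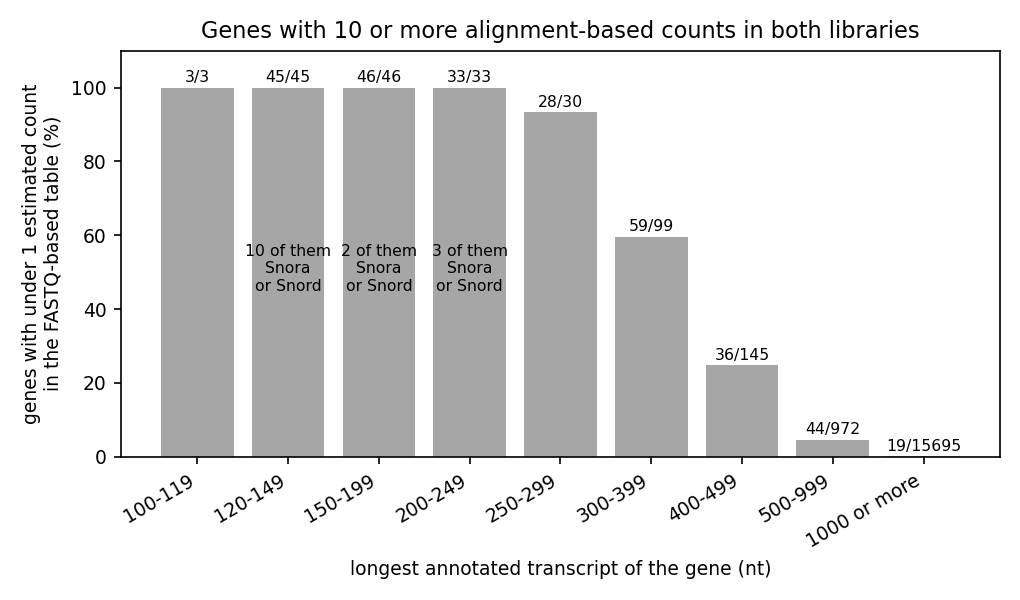
Percent of genes with under 1 estimated count in the FASTQ-based table, by length of the longest annotated transcript, among genes with 10 or more alignment-based counts in both libraries. The numbers over each bar give the genes lost over the genes counted, and the text in the bars gives the C/D and H/ACA genes among them, which fall in classes with a loss of 100%.

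Host genes give a second view of the loci, including those of the short genes. Of the 140 genes, 133 lay within a longer gene on the same strand, in 83 host genes. Protein-coding hosts held 84 of the snoRNA genes and other hosts 49. Hosts that make ribosomal proteins held 32 of the genes, in 24 host genes. Snora17, both identifiers of Snora43, Snora57, Snord13, Snord104 and Snord118 lay in none. For 86 of the 87 C/D genes under 100 nt there was a host, 46 host genes in all, and 45 of these stood at 1 TPM or more in both libraries. The share of all annotated genes at that level is not given here, so the number does not set the hosts apart. The median of the 46 hosts was 33.2 and 32.3 TPM, and that of the 41 hosts of longer genes 55.2 and 52.1 TPM. A host level is not a measurement of its snoRNA, which has its own processing and turnover.

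The hosts with 4 or more genes ranged widely. Rpl13a, a ribosomal protein gene with 4 C/D genes, stood at 604 and 669 TPM. Gas5, a noncoding host with 4 C/D genes from 3 symbols, Snord47, Snord78 and Snord80, stood at 84.0 and 76.8 TPM. Snhg12, with 5 genes, stood at 11.3 and 10.4 TPM, and of its 5 only Snora44 was counted. Snhg14, with 17 copies of Snord116, stood lowest, at 1.12 and 1.23 TPM from 84 and 85 counts.

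Some short snoRNA genes overlap the exons of their hosts. Of the 87 short C/D genes, 35 lay wholly in an exon of an annotated host transcript. For Snord78, chosen after its values were seen, the containing Gas5 transcripts held 672 and 478 counts, and for Snord47 the containing transcript held 43.4 and 26.8. For the U14 genes, which act in small-subunit processing, the transcripts that contain Snord14a held 109 and 68.5 counts. The transcript of Hspa8 that contains Snord14c, Snord14d and Snord14e held 211 and 121. All 4 Snord14 genes are under 100 nt and were at 0 themselves. Of the counted genes, Snord22, Snora44, Snord15b, Snora68 and Snora74a also lay wholly in an exon of a host transcript. The containing transcripts held 317 and 275 counts for Snord22, 83.5 and 68.8 for Snora44, and 83.9 and 104.8 for Snord15b. They held 122 and 135 counts for Snora68, and 22.5 and 18.95 for Snora74a. How many of these host counts came from snoRNA reads, or snoRNA counts from host reads, was not tested.

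Counted snoRNA genes stood above some hosts and below others. Among the 12 counted genes with a host, 8 stood above the host by TPM in both libraries. Snora74a was 52.8 and 66.3 times its host AC121821.1, and Snora73b was 42.1 and 50.004 times and Snora73a 36.5 and 41.4 times Rcc1, which encodes a chromatin-bound exchange factor. Snord22 was 8.41 and 8.09 times Snhg1. Below their hosts were Snord15b (0.803 and 0.683 times Rps3), Snord15a (0.414 and 0.346) and Snora21 (0.0452 and 0.028 times Rpl23), among others. For Snora74a, Snord22 and Snord15b, which lie wholly in a host exon, the ratio depends on how reads were assigned, which was not tested. The Spearman rho between gene and host TPM over the 12 counted genes with a host was -0.42, a description given with no p, since the points share libraries and hosts. Snora73a, Snora73b and Snora74a lie in more than 1 host, of which the one with the highest count was used; for the Snora73 pair the other was Snhg3. Snora23, Snora57, Snora73a, Snora73b and Snora78 also overlap a gene on the opposite strand, and because the tables do not state whether strand was used in counting, their counts are uncertain to that extent.

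**Figure D5:**
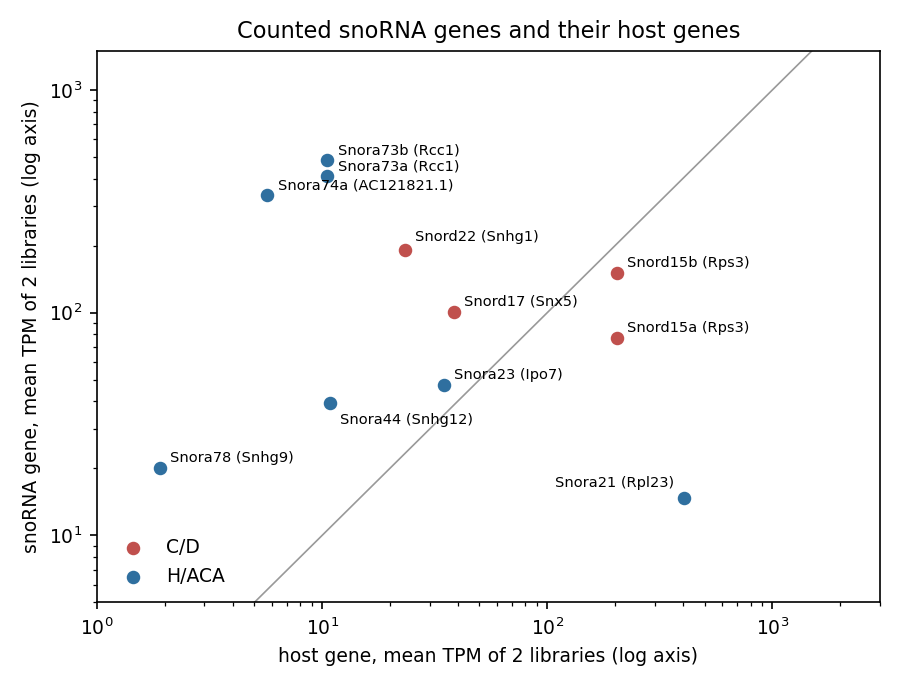
Mean TPM of 11 counted snoRNA genes against mean TPM of their host genes (both axes logarithmic), with host names in brackets and a line of equal level. Of these 11 genes 8 lie above the line, with Snora73a, Snora73b and Snora74a farthest from it.

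The imprinted snoRNAs of the Snrpn to Ube3a domain were not measurable here. This domain is lost in Prader-Willi syndrome, and its C/D snoRNAs are known mainly from neurons. The 17 Snord116 copies on chromosome 7, between 59861731 and 59904848, have 4 different sequences, of which 14 copies share the one printed for Snord116l1, and the least similar pair share 94.7% of positions. With Snord64 and Snord107 the domain held 19 of the C/D genes, all of 94 nt or less and all at 0. Their own level is unknown, while their hosts were low: Snhg14 at 1.12 and 1.23 TPM, and Gm38393, the annotated host of Snord64 and Snord107, at 0.69 and 0.91 TPM. Rian and Meg3, noncoding RNAs of another imprinted domain, Dlk1 to Meg3, stood at 2175 and 2032 TPM and at 2871 and 2371 TPM, and the naming rule took in no snoRNA of the arrays in that domain.

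The genes for the proteins of both particles were expressed. The 4 C/D proteins had a median of 30.4 and 29.6 TPM. Fbl, the methyltransferase fibrillarin, stood at 26.4 and 27.6 TPM. The scaffold proteins Nop56 and Nop58 stood at 34.5 and 31.5 TPM and at 39.1 and 41.3 TPM. Snu13, which binds the kink formed by the boxes, stood at 26.1 and 26.9 TPM. The 4 H/ACA proteins had a median of 17.2 and 20.9 TPM. Dkc1, the pseudouridine synthase dyskerin, stood at 14.5 and 15.7 TPM, Gar1 at 19.9 and 22.1 TPM, Nop10 at 21.2 and 21.8 TPM and Nhp2 at 14.4 and 19.9 TPM. All 10 assembly factors reached 1 TPM in both libraries, with a median of 7.55 and 7.17 TPM. The highest were Pih1d1, a subunit of the R2TP chaperone complex, at 21.2 and 25.0 TPM, and the helicases Ruvbl2 (16.9 and 16.6 TPM) and Ruvbl1 (14.7 and 14.2 TPM). Of the log2 ratios between the libraries, the one farthest from 0 was -0.20 for Nop56 among the C/D proteins and 0.45 for Nhp2 among the H/ACA proteins.

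Of 18 genes listed as long noncoding hosts, a list that also holds Meg3, 15 were in the table under their symbols, all at 1 TPM or more in both libraries, with a median of 13.3 and 11.6 TPM. Below Meg3, Rian and Gas5 came Snhg5 (30.9 and 28.7 TPM), Snhg1 (21.8 and 24.8 TPM), Snhg8 (14.8 and 14.9 TPM), Snhg3 (13.8 and 11.6 TPM), Snhg6 (13.3 and 12.2 TPM) and Snhg12. Snhg20 stood at 8.28 and 7.36 TPM, Snhg17 at 5.4 and 6.55, Snhg18 at 5.08 and 6, and Snhg15 at 4.59 and 6.94. Snhg9, the host of Snora78, was among the lowest, at 1.63 and 2.18 TPM from 4 and 5 counts, and Snora78 stood 13.7 and 8.12 times above it. The 31 listed protein-coding hosts had a median of 201 and 221 TPM, and all reached 1 TPM. Without the share of all annotated genes at 1 TPM, reaching it does not set these hosts or the assembly factors apart.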

How the data were processed

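Total RNA libraries of 2 animals in 1 group were analysed. In the alignment-based tables the deposited values are expected counts, with fractions, in columns named as RSEM names them, per the file headers. The authors' TPM in the same tables divides by effective length over all entries, spike-ins included, per the file headers. The FASTQ-based transcript table has the authors' estimated counts and TPM from unaligned reads, in columns named as kallisto names them, per the file headers. Which programs were run is not given in the sources used. Both rest on mm10 and GENCODE M21, per the deposited notes. Entries named only by a number, with 4 and 6 counts, were left out.

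Transcripts of the second table were summed per gene, and 86 genes are not in it. A gene was counted at 10 or more expected counts in both libraries. Ratios used TMM (trimmed mean of M-values) scaling factors from edgeR 4.0.16 under R 4.3.3 and a prior of 0.5 counts, and DESeq2 1.42.0 size factors as an alternative. The limit of a count of 0 is 3 counts. Intervals and limits cover counting error only, since reads carry no molecular identifiers here. Hosts are same-strand genes spanning the snoRNA gene in the annotation, and of several the one with most counts was used. The calculation of the ratios was checked on simulated counts with known fold changes and counting error only. That check covers the calculation and not the spread of these libraries. The members, lists and alternatives were chosen with earlier results of these data known. Genes named are the 10 highest of each class by count and 5 by TPM, 6 of largest ratio, the processing and imprinted lists, protein and host lists, and hosts of 4 or more members. No p-value was computed. The sequence of 1 gene and the host comparison of another are not reported here.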

Additional observations from a re-analysis of the deposited data

How the results depend on the processing

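Of 87 alternatives over 23 results, 51 left the value within its spread, 36 moved it and none reversed it. This tally does not measure stability, since part of it was fixed by arithmetic. A mean of 2 libraries always lies within their SD of either library, so leaving out a replicate could not move such a value. Another scaling shifts all log2 ratios alike, so their SD of 0.13 at a mean count of 100 or more could not change. Gene numbers, shares, sums and medians have no direction to reverse. The median ratio has a direction, but it was not recomputed over genes with any count or over all genes. Over all genes the C/D median of 0 TPM lay below the H/ACA median of 2.03 TPM, while over genes with any count C/D was the higher. With a minimum of 1 count the number of counted H/ACA genes, and of those lost by the FASTQ-based table, rose from 10 to 21, and with a minimum of 100 counts both fell to 4. With 100 counts the C/D numbers fell from 5 to 3. By the FASTQ-based table the numbers of counted genes, the percent of gene counts and the summed TPM of both classes were 0. Without the gene of highest count in its class, C/D genes took 0.00139% of gene counts instead of 0.00257% and 445 TPM instead of 546, and H/ACA genes 0.0073% instead of 0.0116% and 999.6 TPM instead of 1482. Without mitochondrial genes, Rn7s1, Rn7s2 and Rn7sk in the denominator the shares were 0.00303% and 0.0137%. Over genes with any count the medians were 77.1 TPM and 3.16 CPM for C/D and 6.68 TPM and 0.201 for H/ACA, and over all genes 0 and 0 for C/D and 2.03 TPM and 0.068 for H/ACA, against 101.2 TPM and 4.34 and 32.4 TPM and 0.944 over counted genes. The SD of the log2 ratios was 0.29 at a mean count of 10 and 0.0466 at a mean count of 1000, where 2 genes remain. By the FASTQ-based table the list medians were 43.3 TPM for C/D proteins, 32.2 for H/ACA proteins, 15.9 for assembly factors, 16.1 for long noncoding hosts and 531 for protein-coding hosts. Alternatives added after seeing the data were genes of 100 nt or more (45.5% of C/D genes counted), division by annotated length (5.11 for the median ratio instead of 3.26), the summed ratio without Snora73a and Snora73b (1.43 instead of 4.51) and the intervals under other scalings.

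Leaving out a replicate gave 10 to 11 counted H/ACA genes and 5 counted C/D genes, 0.0025% to 0.00263% and 0.0113% to 0.0118% of gene counts, and median ratios of 2.50 to 4.02. No paired analysis was possible because there was only 1 group. The ratio between libraries could not be formed from the FASTQ-based table, where all values are 0. Depth limits genes of under about 10 counts, and the effective length of 0 limits all genes under 100 nt.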

Other observations

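Outside the naming rule lay 1367 further annotated snoRNA genes, 1342 of them with Gm names and 371 under 100 nt. They held 15794 and 17356 counts, above the sum of the 140 C/D and H/ACA genes. Scarna10, a guide RNA of the Cajal body, held 4097 and 4697 counts, or 620 and 763 TPM, which was more than any Snora or Snord gene. The 10 Rnu3 genes, copies of the U3 RNA that acts in early cutting of the ribosomal precursor, held 8615 and 9700 counts together, or 2534 and 3064 TPM. Their copies are near-identical, and the split between them was not stable. One Rnu3a identifier held 526 counts in replicate 1 and 0 in replicate 2 while the other held 452 and 1055, but the pair summed to 978 and 1055. Only such sums are interpretable for U3. Gm26448, Gm22988 and Gm26447 held 604 and 677, 548 and 481, and 409 and 375 counts. All 37 counted genes of this group, Scarna10 and U3 included, had under 1 estimated count in the FASTQ-based table.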
